A study of Mus musculus with 9 samples.

Results

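Complement is a cascade of plasma and cell-surface proteins that marks material for removal. In its classical branch the recognition protein C1q, built from the chains encoded by C1qa, C1qb and C1qc, activates the proteases C1r and C1s, which cleave C4 and lead to cleavage of C3, the central component. Cd55 speeds the decay of the enzymes that cleave C3, Cd59a blocks the pore formed at the end of the cascade, and Serping1, the C1 inhibitor, inactivates C1r and C1s. In heart tissue C1q transcripts are known mainly from macrophages, and Serping1 and the C1 proteases from fibroblasts and other stromal cells.

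The 9 genes described here were named as a set: Cd55, Cd59a, C1qa, C1qb, C1qc, C3, C4b, C1s (current symbol C1s1) and Serping1. Of these, 8 had a probe set with a gene name among the 30743 genes tested, and C3 was not analysed here because no probe set with its name was in the probe table used. Cd55 had been picked because it stood higher after vesicles than after medium in earlier results from the same arrays. Values of vesicles against medium are therefore given as description, with no test, and nothing is supported by them.

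Whole hearts of immunodeficient nude mice were profiled on Affymetrix arrays 6 weeks after treatment. All hearts are labelled as chronic heart failure: the left anterior descending artery had been tied permanently, and mice with an ejection fraction below 50% were treated 3 weeks later. The control group received alpha-MEM, a culture medium (2 arrays), the vesicle group the extracellular vesicles that 500000 cardiovascular progenitor cells secrete in 48 hours (3 arrays), and the cell group 500000 of the progenitor cells (3 arrays). The sham group, 1 array, had the needle inserted 3 times into the myocardium with nothing injected, so it is infarcted like the others. By their titles, experiment 9 held the sham array and the first array of each injected group, and experiment 1 the other 5 arrays. The sources used here do not name the species of the progenitor cells or the age of the mice. Nor do the labels tie each array to an animal of its own, so p-values measure only the spread between these arrays.

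On the deposited log2 scale, array medians lay between 5.55 and 5.63. The level under which 95% of the negative control probe sets fell was 7.18 to 7.28, and it is used here as a mark of dim signal. The heart label held against cardiac muscle markers: all 9 measured ones were above that mark, led by Tnnt2, Myh6 and Pln, with a mean over the list of 11.34 to 11.45. Vesicle array 3 stood apart in lung transcripts, with Sftpc, the surfactant protein of alveolar cells, at 9.75 and Scgb1a1, a secretory protein of the airways, at 8.90. Sftpc was 6.35 on the sham array and 4.28 to 4.52 on the other 7. The mean of 10 lung epithelium markers was 6.73 on vesicle array 3, 5.25 on the sham array and 4.94 to 5.03 elsewhere. Results that include vesicle array 3 are given with and without it where that matters.

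The 8 measured genes differed in level. Serping1 (mean 9.98 over 9 arrays), Cd59a (9.21), Cd55 (8.13), C1qb (7.97) and C4b (7.60) lay above the mark of dim signal by their mean, and C1qa (7.01), C1qc (6.71) and C1s1 (6.61) lay under it. These levels come from single probe sets, are not scaled to length and rank no gene against another. C1qa was above the mark of its own array on 1 of 9 arrays, C1qc on none and C1s1 on 3.

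**Figure D1:**
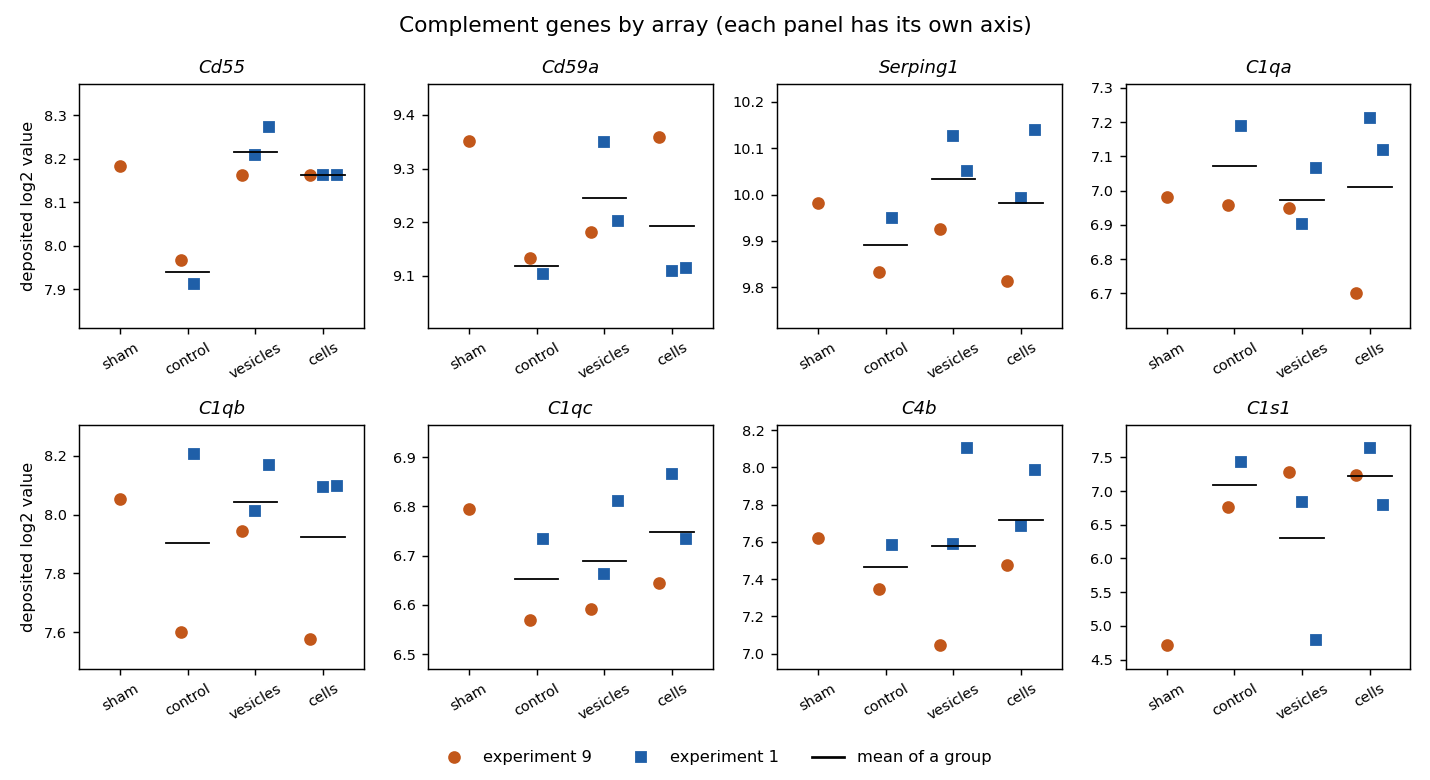
Deposited log2 values of the 8 measured complement genes, 1 point per array, grouped by treatment and coloured by experiment, with a line at the mean of each group with more than 1 array. Cd55 is lowest on both control arrays, C1s1 is far lower on the sham array and 1 vesicle array than on the other 7, and C1qb, C1qc, C4b and Serping1 are higher on the injected arrays of experiment 1 than on those of experiment 9.

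Cd55 was lowest in the hearts given medium. It stood at 7.97 and 7.91 on the control arrays, at 8.16, 8.21 and 8.27 on the vesicle arrays, at 8.16 on each of the 3 cell arrays and at 8.18 on the sham array. The controls lay below all 7 other arrays, the sham array included, so the heart with a needle but no injection stood with the treated hearts in this gene. This order of the controls below the other 7 arrays was seen in 0.852% of all 30743 genes, and nothing is read from that share because Cd55 was chosen for part of the pattern. After vesicles Cd55 was 0.27 ± 0.037 (SE, 3 vesicle and 2 control arrays) above medium on the log2 scale, or 1.21-fold. The difference from the control of the same experiment was 0.20 in experiment 9 and 0.30 and 0.36 in experiment 1.

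The cell arrays, which did not enter the choice of Cd55 but share its control arrays, gave a difference from medium of 0.22 ± 0.037 (SE), or 1.17-fold. All 3 cell arrays lay above both controls, as in 3.19% of all genes, and Cd55 was the only one of the 8 members with this order. The gene did not pass, with an adjusted p = 0.679 in limma over all genes. The control arrays took part in the choice of Cd55, so nothing is read from this order or this p-value. Vesicles and cells differed in Cd55 by 0.051 ± 0.033, given without a test because the vesicle arrays led to the choice. The deposited value is exactly 8.16378 on 4 arrays, namely vesicle array 1 and all 3 cell arrays. Such ties, which 61.0% of all genes have on 3 or more arrays, narrow the spread that enters the standard error.

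Cd55b, a neighbouring paralogue of Cd55 with the same kind of protein, followed the same order at a dim level. Its values were 6.06 and 5.94 on the control arrays, 6.14, 6.25 and 6.27 after vesicles, 6.17, 6.19 and 6.17 after cells and 6.17 on the sham array. Over the 9 arrays Pearson's r between the pair was 0.96 (Spearman's rho 0.89), and r was 0.87 without the 2 control arrays. Cd55b was under the mark of dim signal on every array, and how far probes of one gene also bind transcripts of the other was not tested. The 300-base windows around the starts of both genes (250 bases before to 50 after) are shown to let the pair be compared. They come from RefSeq on GRCm38.p6 at chr1:130462695-130462994, minus strand, and chr1:130422994-130423293, minus strand, and capitals mark the longest run that the 2 windows share, 24 bases.
Cd55: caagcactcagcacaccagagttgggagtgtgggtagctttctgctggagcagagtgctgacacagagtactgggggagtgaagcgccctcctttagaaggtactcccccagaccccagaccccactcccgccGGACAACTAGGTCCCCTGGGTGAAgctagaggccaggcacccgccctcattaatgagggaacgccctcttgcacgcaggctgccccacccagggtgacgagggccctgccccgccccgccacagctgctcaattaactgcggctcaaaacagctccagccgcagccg
Cd55b: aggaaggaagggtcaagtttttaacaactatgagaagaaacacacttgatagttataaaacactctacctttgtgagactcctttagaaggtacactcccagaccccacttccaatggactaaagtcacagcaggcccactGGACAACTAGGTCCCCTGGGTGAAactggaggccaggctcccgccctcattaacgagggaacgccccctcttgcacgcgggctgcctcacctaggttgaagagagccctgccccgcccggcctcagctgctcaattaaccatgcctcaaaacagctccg
The windows were 65.9% identical in a global alignment, gaps counted. Counted from the start, the shared run begins at −117 in Cd55 and at −109 in Cd55b. Both windows hold the GC box GGGCGG on the opposite strand, at −77 and −7 in Cd55 and at −69 and 4 in Cd55b. Of 32851 RefSeq windows of the same length, 35.7% hold that motif on either strand.

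Cd59a, the mouse form of protectin on the cell membrane, showed no such order. It stood at 9.13 and 9.10 on the controls, 9.18, 9.35 and 9.20 after vesicles, 9.36, 9.11 and 9.11 after cells and 9.35 on the sham array. Every vesicle array lay above both controls, an order that 2 of the 8 members (Cd55 and Cd59a) and 3.71% of all genes had and from which nothing is read. In contrast, the cell group was split, with cell array 1 of experiment 9 the highest of all 9 arrays and the other two cell arrays within 0.011 of their control. The difference from medium was 0.14 ± 0.092 (SE) after vesicles, given without a test, and 0.086 ± 0.092 after cells, where limma's adjusted p was 0.836. Without cell array 1 the latter was −0.028. The paralogue Cd59b ranged from 6.11 to 6.63, under the mark of dim signal throughout, and was highest on vesicle array 2.

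Serping1 was far above the mark of dim signal on every array. Its values were 9.83 and 9.95 on the controls, 9.92, 10.13 and 10.05 after vesicles, 9.81, 9.99 and 10.14 after cells and 9.98 on the sham array. Within each group the array of experiment 9 was the lowest. The difference between vesicles and medium was 0.11 ± 0.058 (SE), without a test, and that between cells and medium 0.060 ± 0.058 (limma's adjusted p = 0.815). Of 11 fibroblast markers, all above the mark of dim signal, 11 had higher fitted values after vesicles than after medium. Their median difference was 0.14, against −0.012 over all genes and 0.0095 over the 6729 genes above the mark. After cells 5 were higher (median −0.023, against −0.0068 and 0.020). None of these markers passed limma's adjusted threshold in the comparison with cells. Their mean level was 8.98 and 9.11 on the controls, 9.18 to 9.31 after vesicles, 8.92 to 9.22 after cells and 9.29 on the sham array, and its part in the Serping1 values was not tested. The genes most like Serping1 over the 9 arrays, looked up after its values had been seen, were Tgfb3, a transforming growth factor (r = 0.97), Acta2, smooth muscle actin (r = 0.96), Pmepa1 (r = 0.96), Fbln1, the matrix protein fibulin (r = 0.96), and Slc25a23 (r = 0.95), of the 6729 genes above the mark. Without the 2 cell arrays on which Serping1 was farthest from its median, r lay between 0.92 and 0.96 for these 5 genes.

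**Figure D2:**
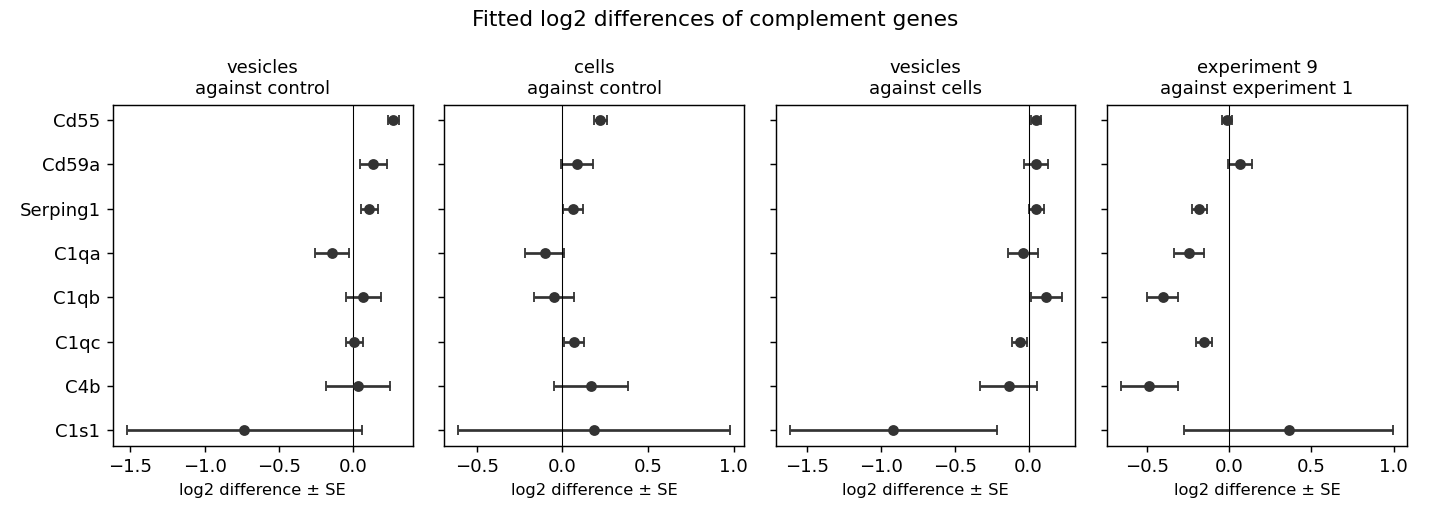
Fitted log2 differences (horizontal axis, points) with standard errors (bars) for the 8 measured complement genes in the comparisons of vesicles, cells and medium and of the experiments; each panel has its own axis. C1s1 has standard errors of 0.64 to 0.79, against 0.030 to 0.22 for the other 7 genes.

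The C1s protease gene had the widest spread of measured values among the 8 members. C1s1 stood at 4.71 on the sham array and 4.79 on vesicle array 3, against 6.76 and 7.43 on the controls, 7.28 and 6.83 on the other two vesicle arrays and 7.24, 7.63 and 6.79 after cells. C1s1 was above the mark of dim signal of its own array on only 3 of the 9 arrays. Both low values and that of control array 1 are among those under it, so the size of the gap is that of dim signals and no fold is given. No array lay between the low pair and the remaining 7, whose values spanned 6.76 to 7.63. The range over the 9 arrays, 2.92 on the log2 scale, was matched or exceeded by only 11 of the 30743 genes, C1s1 included, and the median range over all genes was 0.20. The low arrays come from different treatments and different experiments, and they are the arrays with the highest Sftpc, 6.35 and 9.75; the part of the lung transcripts in this pattern was not tested. The C1s1 probe set carries the old and the current name of the gene, C1s and C1s1, in the platform annotation.

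The neighbouring paralogue C1s2 had nearly the same values. It stood at 4.69 on the sham array, 4.900 on vesicle array 3 and 6.54 to 7.45 on the other 7, with r = 0.998 to C1s1 over 9 arrays and 0.99 without the 2 low arrays. Signal of one of these genes read by the probe set of the other cannot be told apart here. The C1r genes beside them, C1ra and C1rb, which encode the protease that activates C1s, were also lowest on these arrays. C1ra stood at 6.55 and 6.64 against 6.76 to 7.27 elsewhere, and C1rb at 6.80 and 6.99 against 7.06 to 7.39. These low values of the C1r genes also lie under the mark of dim signal, which C1ra passed on 1 of the 9 arrays and C1rb on 3.

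Other genes around them varied far less. Of the 6 protein-coding neighbours on each side of C1s1, all measured, the 9 besides C1ra, C1rb and C1s2 had ranges of 0.011 to 0.43. On the same 2 arrays Lpcat3, a phospholipid acyltransferase next to the cluster, and Phb2, a prohibitin, were also lowest, by small steps. Lpcat3 was 7.59 on both against 7.69 to 7.77 elsewhere, and Phb2 was 7.99 and 7.93 against 8.01 to 8.09. Cd163, a macrophage scavenger receptor, and C1rl, a C1r-like protease, were instead highest on vesicle array 3, at 6.82 and 6.33.

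**Figure D3:**
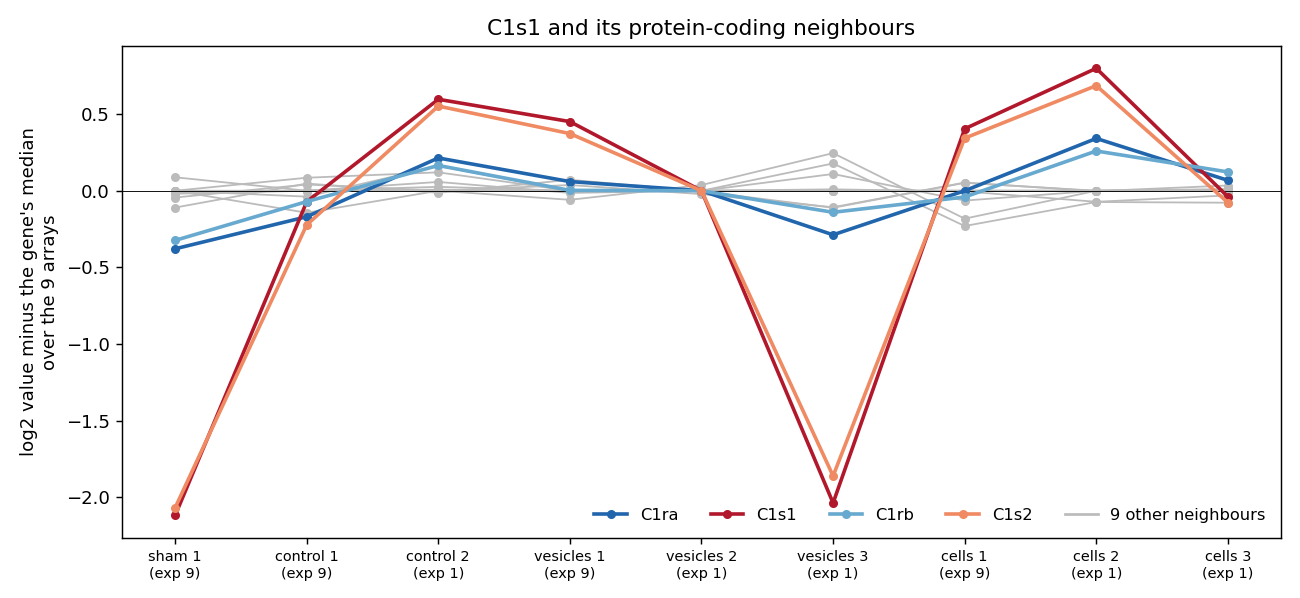
Log2 values of C1s1 and the 6 protein-coding genes on each side of it, each minus its median over the 9 arrays (vertical axis), by array (horizontal axis, with the experiment). C1s1 and C1s2 drop by about the same amount on the sham array and vesicle array 3, C1ra and C1rb drop less, and the 9 other neighbours have ranges of at most 0.43.

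No treatment difference in C1s1 could be resolved with this spread. The difference was −0.73 ± 0.79 (SE) after vesicles, without a test, and 0.19 ± 0.79 after cells (limma's adjusted p = 0.987). Vesicles against cells gave −0.92 ± 0.70 (adjusted p = 0.921). Without vesicle array 3 the difference of vesicles from medium was −0.037 and that from cells −0.15. Without control array 2 the former was 0.041, and without control array 1 it was −1.37. The genes most like C1s1, again looked up after its values had been seen, were Gm13642 (r = 0.94), Lsmem2 (0.92), Rabac1 (0.89), Mlycd (0.87) and Lsm7 (0.87). Without the 2 low arrays r was −0.0033 for Gm13642 and 0.23 to 0.71 for the others, so the likeness rested partly or wholly on those arrays. Their own ranges were narrow: Gm13642, for example, ran from 7.97 to 8.08.

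The C1q genes showed no order by treatment and were lower on the injected arrays of experiment 9 by their fitted difference, which did not pass the test. C1qb, above the mark of dim signal on all 9 arrays, stood at 7.60 and 8.20 on the controls, 7.94, 8.01 and 8.17 after vesicles, 7.58, 8.10 and 8.10 after cells and 8.05 on the sham array. The 2 control arrays lay 0.60 apart, which exceeds every difference of a treated array from its own control. C1qa stood at 6.96 and 7.19 on the controls, 6.95, 6.90 and 7.07 after vesicles, 6.70, 7.21 and 7.12 after cells and 6.98 on the sham array. C1qc stood at 6.57 and 6.73, then 6.59, 6.66 and 6.81, then 6.64, 6.87 and 6.73 in the same order, and 6.79 on the sham array. In all 3 genes the groups overlapped.

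Differences from medium were −0.14 ± 0.11 (SE) for C1qa, 0.071 ± 0.12 for C1qb and 0.011 ± 0.058 for C1qc after vesicles, without a test. After cells they were −0.10 ± 0.11, −0.049 ± 0.12 and 0.070 ± 0.058, with limma's adjusted p of 0.844, 0.953 and 0.778. Within experiments C1qb after vesicles was 0.34 above control array 1 in experiment 9 and 0.19 and 0.035 below control array 2 in experiment 1 (differences of −0.19 and −0.035). Whether vesicles differed from medium unequally in the experiments is not read from these values. On leaving out single arrays the difference of vesicles from medium ranged from −0.089 to 0.22 for C1qb and from −0.025 to 0.049 for C1qc. Its sign turned for C1qb without vesicle array 1 (−0.089) and without control array 1 (−0.051), and for C1qc without vesicle array 3 (−0.025).

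C1qa, C1qb and C1qc are adjacent on chromosome 4 and encode chains of one protein. The windows around the starts of C1qb and C1qc, from RefSeq on GRCm38.p6 at chr4:136886151-136886450, minus strand, and chr4:136892865-136893164, minus strand, are shown because these genes had the same order of experiments; no window for C1qa was used. Capitals mark the motif GAGGAA, a core bound by the myeloid factor PU.1 and other ETS proteins, on either strand.
C1qb: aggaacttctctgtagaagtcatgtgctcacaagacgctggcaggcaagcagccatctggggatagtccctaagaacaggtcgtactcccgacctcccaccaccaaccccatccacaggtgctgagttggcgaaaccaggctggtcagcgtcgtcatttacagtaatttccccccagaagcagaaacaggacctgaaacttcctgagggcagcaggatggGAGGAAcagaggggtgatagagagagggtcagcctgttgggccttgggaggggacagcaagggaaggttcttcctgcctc
C1qc: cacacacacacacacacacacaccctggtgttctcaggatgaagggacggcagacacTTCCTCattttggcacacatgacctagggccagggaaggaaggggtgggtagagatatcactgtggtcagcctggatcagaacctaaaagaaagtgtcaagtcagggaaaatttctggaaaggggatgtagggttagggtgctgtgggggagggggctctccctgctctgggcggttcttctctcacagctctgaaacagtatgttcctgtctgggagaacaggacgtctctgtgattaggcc
Each window holds the motif once, beginning at −30 in C1qb and, on the opposite strand, at −193 in C1qc. Of all 32851 windows 28.3% hold it. Neither window holds the STAT element TTCNNNGAA, present in 8.30% of all windows, on either strand.

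C4b encodes the complement component cleaved by C1s. It stood at 7.35 and 7.58 on the controls, 7.05, 7.59 and 8.10 after vesicles, 7.47, 7.68 and 7.99 after cells and 7.62 on the sham array. The lowest and the highest of all 9 arrays were both vesicle arrays, and the highest was the one with lung transcripts. The difference was 0.033 ± 0.22 (SE) after vesicles, without a test, 0.17 ± 0.22 after cells (limma's adjusted p = 0.875) and −0.14 ± 0.19 between vesicles and cells (adjusted p = 0.941). Without vesicle array 3 the difference of vesicles from medium was −0.15. The paralogue C4a, dim at 6.60 to 7.12, gave r = 0.99 with C4b over the 9 arrays (rho 0.98, and 0.98 without the 2 vesicle arrays farthest from the median), and the signals of this pair cannot be told apart.

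**Figure D4:**
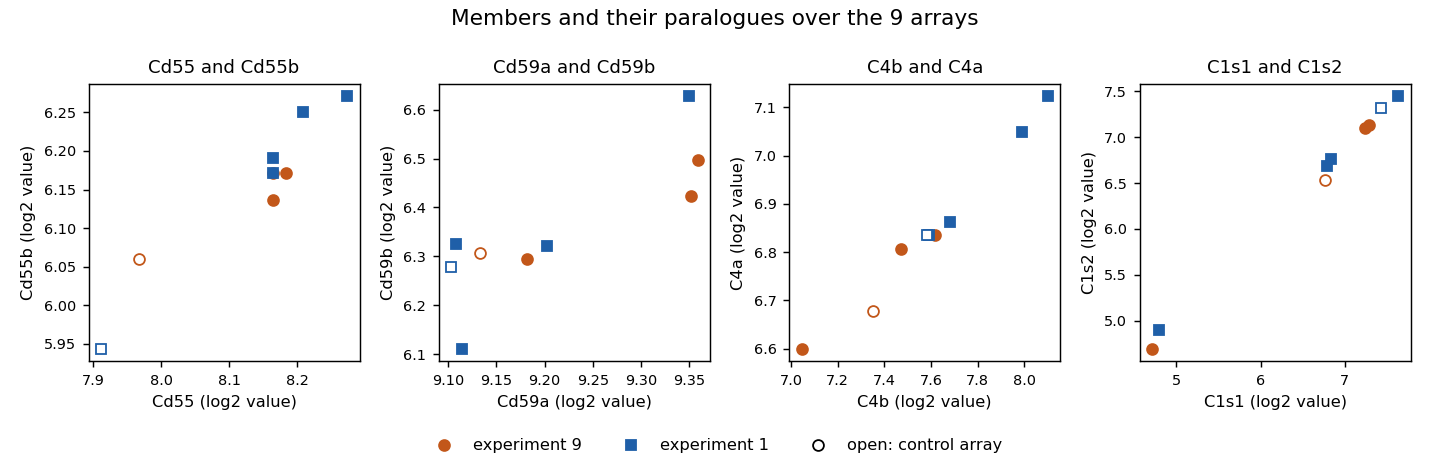
Log2 values of each member (horizontal axis) against its paralogue (vertical axis), 1 point per array, with control arrays open. C1s1 with C1s2 and C4b with C4a lie close to a line, Cd55 with Cd55b places both controls at the low end, and Cd59a with Cd59b scatters.

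The experiments were compared with treatment in the model, to see how far members followed the experiment number. C1qb stood 0.41 ± 0.095 (SE) lower in experiment 9 than in experiment 1 (log2 difference −0.41), C4b −0.49 ± 0.17, C1qa −0.25 ± 0.092, Serping1 −0.18 ± 0.046 and C1qc −0.15 ± 0.047. None passed: limma's adjusted p was 0.295 for C1qb, 0.309 for Serping1, 0.35 for C1qc, 0.382 for C4b and 0.389 for C1qa. Cd55 (−0.013 ± 0.030), Cd59a (0.064 ± 0.074) and C1s1 (0.36 ± 0.64) had differences smaller than their errors. In C1qb, C1qc, C4b and Serping1 every injected array of experiment 1 lay above every injected array of experiment 9, which is 4 of 8 members, while 2.73% of all genes had this order. The sham array, also of experiment 9, stood with experiment 1 in these 4 genes, at 8.05, 6.79, 7.62 and 9.98. In tests over all genes 12.7% had an unadjusted p under 0.05 for the experiment, and 0 passed limma's adjusted threshold. The labels do not say what the experiment number stands for.

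Macrophage markers were, like the C1q genes, mostly lower in experiment 9. Of 18 measured markers, with Lyz2, Mrc1 and Lyve1 at the highest values, 17 were lower in experiment 9 (median difference −0.28, against −0.010 over all genes). Of these, 7 had an unadjusted p under 0.05 in limma, beside 12.7% of all genes and 22.1% of the 6729 above the mark of dim signal. None of the markers passed limma's adjusted threshold. Their mean level was 6.44 to 6.48 on the injected arrays of experiment 9, 6.57 to 6.80 on those of experiment 1 and 6.61 on the sham array. By treatment the mean ran from 6.44 to 6.78 on the controls, 6.48 to 6.80 after vesicles and 6.44 to 6.76 after cells, so that the groups overlapped. In whole hearts, macrophage number, RNA per macrophage and anything else that differs between the experiments cannot be told apart. Other marker lists were lower in experiment 9 too, with 9 of 11 fibroblast markers (median −0.066), 9 of 10 granulocyte markers (median −0.084) and 6 of 6 mesothelial markers (median −0.14). By their means over the 9 arrays, 0 of the 10 granulocyte and 0 of the 6 mesothelial markers lay above the mark of dim signal. Of the 18 macrophage markers 5 did, and of the 11 fibroblast markers 11. Differences of markers under the mark are those of dim signals. All 9 cardiac muscle markers, which lie above the mark, were higher (median 0.072), beside 4517 of the 6729 genes above it (median 0.029). The part of cell makeup in the C1q values was not tested.

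**Figure D5:**
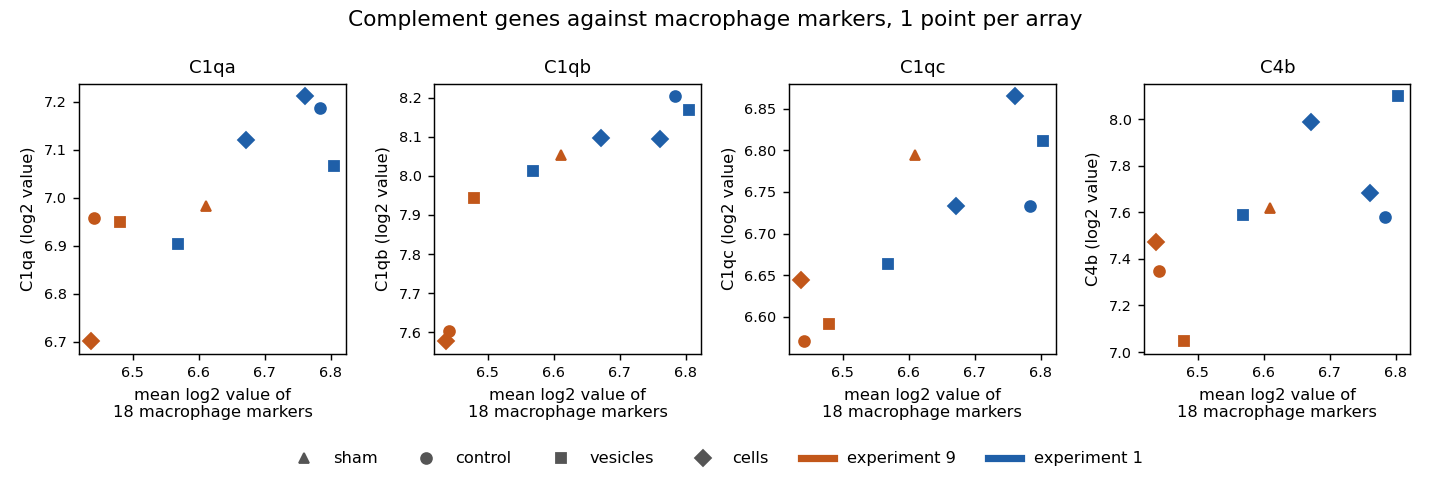
Log2 values of C1qa, C1qb, C1qc and C4b (vertical axes) against the mean log2 value of 18 macrophage markers (horizontal axis), 1 point per array, with shapes for treatments and colours for experiments. The injected arrays of experiment 9 lie at marker means of 6.44 to 6.48, those of experiment 1 at 6.57 to 6.80 and the sham array at 6.61.

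The wider complement system was read from a list of 57 genes by role, of which 52 were measured and 10 lay above the mark of dim signal by their mean; 5 of these 10 are members named above. After cells 26 of the 52 were higher, 25 lower and 1 equal to medium (median 0.00091, against −0.0068 over all genes). After vesicles 25 were higher, 26 lower and 1 equal (median −0.0029, against −0.012). The equal gene is C9, which has the very same value on all 8 injected arrays, and differences within 1e-09 were taken as equal. Of the 10 above the mark, 9 were higher after cells (median 0.097), beside 4451 of the 6729 genes above it (median 0.020). After vesicles 9 of the 10 were higher (median 0.086), beside 3816 of the 6729 (median 0.0095). Cd55 is among the 10 and both comparisons share the control arrays of its choice, so nothing is read from these counts. None of the 52 passed limma's adjusted threshold in either comparison, where 0% of all genes passed. For cells 3 genes had an unadjusted p under 0.05, Cd55, Cd55b and Mbl1, beside 6.79% of all genes; Cd55 was chosen on the control arrays this comparison shares, so its part of the count supports nothing. Vesicles against cells gave 22 higher, 29 lower and 1 equal, with 2 at an unadjusted p under 0.05, C1qbp and Cpn2, beside 4.35% of all genes. Between the experiments 40 of 52 were lower in experiment 9 (median −0.053), beside 17966 of all 30743 genes (median −0.010). Of the 52, 11 had every injected array of experiment 1 above every one of experiment 9, where the background was 2.73% of genes.

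By role, 5 of 8 membrane regulators were higher after vesicles (median 0.11) and 5 of 8 after cells (median 0.056), and 5 of 10 and 8 of 10 classical pathway genes were. Among receptors 4 of 10 were higher in each. Beside these, 11813 of all 30743 genes were higher after vesicles and 13179 after cells. Among the 6729 genes above the mark of dim signal 3816 and 4451 were. The membrane regulators include Cd55, chosen on the vesicle and control arrays, and its paralogue Cd55b, so nothing is read from their counts. Of the further bright genes, Cr1l, which encodes Crry, the main rodent membrane regulator of C3 cleavage, stood at 8.16 and 7.99 on the controls, 8.28, 8.15 and 8.003 after vesicles, 8.23, 8.16 and 8.06 after cells and 8.15 on the sham array. Its differences were 0.10 ± 0.056 after vesicles and 0.11 ± 0.056 after cells (SE), and each treated array lay above its own control by 0.017 to 0.17. The share of all genes with this order was not counted, so nothing is read from it. The groups overlapped, with vesicle arrays 2 and 3 (8.15 and 8.003) and cell array 3 (8.06) under control array 1 (8.16). Limma's adjusted p for cells was 0.679. Clu, the soluble regulator clusterin, was 9.69 to 9.88 on 8 arrays and 10.16 on cell array 3. Cd93, an endothelial and myeloid receptor once taken for a C1q receptor, was 8.24 on the sham array and 8.32 to 8.92 elsewhere. C1qbp, a mitochondrial protein that binds C1q, spanned only 8.50 to 8.67.

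C7, a component of the terminal pore and the one gene of that role above the mark of dim signal, was uneven between arrays. It stood at 8.72 and 8.64 on the controls, 8.43, 8.72 and 9.18 after vesicles, 8.43, 8.58 and 9.46 after cells and 9.26 on the sham array. Cell array 3, the sham array and vesicle array 3 were thus the 3 highest. The differences from medium were 0.032 ± 0.32 (SE) after vesicles and 0.078 ± 0.32 after cells (limma's adjusted p for cells = 0.985). Against the control of the same experiment, C7 was −0.29 and 0.078 on vesicle arrays 1 and 2 and 0.54 on vesicle array 3, and −0.29 and −0.064 on cell arrays 1 and 2 and 0.82 on cell array 3. The mean of 6 mesothelial markers was likewise highest on vesicle array 3 and the sham array, at 6.22 and 6.06, against 5.82 to 6.02 elsewhere. By their means 0 of the 6 lay above the mark of dim signal. The part of these markers in the C7 values was not tested.

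The sham array was set against control array 1 of the same experiment, by value, since there is 1 array on each side. Of the 8 members 7 were higher on the sham array, from 0.024 for C1qa to 0.45 for C1qb. The share of all genes higher on the sham array was not counted, and control array 1 took part in the choice of Cd55. Nothing is therefore read from the count of 7. No member was higher by more than 0.5 on the log2 scale, a size that 0.472% of all genes reached. C1s1 alone was lower by more than 0.5, at −2.05 between values that are both under the mark of dim signal, where 0.198% of all genes were. Of the 52 complement genes only C7 was higher by over 0.5 (0.54), and only C1s1 and C1s2 were lower by over 0.5.

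Over the 9 arrays the genes most like Cd55 among the 6729 above the mark were Gsr, glutathione reductase (r = 0.94), Igfbp5, which binds insulin-like growth factors (0.92), Nfkbia, the inhibitor of NF-kappaB (0.90), Gm12699 (0.90) and Fndc3a (0.90). Without the 2 control arrays r was 0.85, 0.71, 0.74, −0.37 and 0.97 in that order. For C1qa they were Olig1 (0.93), AI837181 (0.92), Psme3ip1 (0.89), Mir6236 (0.89) and Krtap5-1 (0.89), and r was 0.65 to 0.87 without the 2 cell arrays farthest from its median. These are the highest of 6729 correlations per gene over the same arrays and are given as description. Olig1, the first of them, ranged from 7.12 to 7.46 and is tied on 4 arrays.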

How the data were processed

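The data are expression values of whole mouse hearts. Per the labels' protocols, RNA was extracted with Trizol and labelled with the Affymetrix whole-transcript kit. The deposited values were read as log2 from their range, since the log base is not stated; the submitters' processing notes name Partek, and how background was corrected or arrays normalized is otherwise not given in the sources used here. Of 32750 probe sets listed with names, 30604 had 1 symbol, 612 had several names of 1 Entrez gene in RefSeq (C1s and C1s1 among them) and were kept, and 1534 were left out. For genes with several probe sets, 364 in all, the one with the highest mean was used.

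Linear models (limma 3.58.1, lmFit with eBayes, in R 4.3.3) were fitted to 30743 genes on the 8 injected arrays, with a treatment term and an experiment block, which left 4 residual degrees of freedom. Two-sided p-values were adjusted over all genes (Benjamini-Hochberg, threshold 0.05), and values after ± are standard errors. The interaction of treatment and experiment was fitted on the same arrays. The fit was also run on simulated data with independent normal noise, which lacks the ties of the deposited values. Nothing is drawn from that run here. Alternatives covered normalization, low genes, block, sham, probe sets, moderation and single arrays. Promoter windows are RefSeq's on GRCm38.p6, found for 6 of the 9 genes.

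The members and gene lists were chosen with earlier results of these data known. Genes named are the members, their paralogues, complement genes above the mark of dim signal, the 3 brightest markers of a list and the 5 genes most correlated with Cd55 and C1qa. Sftpc, Scgb1a1, C9, Mbl1, Cpn2, Itgax, neighbours of C1s1 and genes like C1s1 and Serping1 were named after their values were seen.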

Additional observations from a re-analysis of the deposited data

How the results depend on the processing

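No member passed limma's adjusted threshold in any tested comparison under any alternative run: of 364 values under alternatives, 343 kept their sign and 21 turned. For Cd55, cells against medium ranged from 0.17 to 0.26 on leaving out single arrays. Leaving out a control array left 1 control, and Cd55 was chosen partly on the control arrays, so this range supports nothing. The sign turned for Cd55 between experiments with arrays centred on their median (0.020) and with sham among the controls (0.029), for C1s1 between experiments with sham among the controls (−0.066), and for C1qb in cells against medium with no block (0.019). Without single arrays, cells against medium ranged from −0.16 to 0.033 for C1qa, −0.17 to 0.098 for C1qb, −0.022 to 0.33 for C4b, −0.46 to 0.96 for C1s1 and −0.028 to 0.12 for Cd59a. Vesicles against cells ranged from −0.15 to 0.045 for C1qa, −0.016 to 0.21 for C1qb, −0.33 to 0.029 for C4b and −0.018 to 0.15 for Cd59a. Experiment 9 against 1 ranged from −0.039 to 0.024 for Cd55, −0.27 to 0.75 for C1s1 and −0.041 to 0.15 for Cd59a. The cause of these turns was not tested.

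Over all genes, 0 passed in each comparison. With sham among the controls 1 gene passed for cells, least squares without moderation called 4 for vesicles and 2 for the experiment, and a test without tied genes (3 or more arrays alike), chosen after seeing the data, called 2 for the experiment. Leaving out single arrays gave 0 to 831 for vesicles against medium and 0 to 910 for cells against medium, both highest without control array 1, where the spread of the lone control is taken from the other groups; among complement genes the range was 0 to 1, the gene being Itgax in both.

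A fit with the VTS number of the titles as a replicate block called 0 genes in every comparison. Arrays of the same number had correlated deviations of 0.035 to 0.22, and 5 of 8 arrays correlated best with an array of their own number. How many would do so by chance was not worked out, so nothing is read from this count. VTS number 3 is on the arrays of experiment 9 only, and VTS numbers 1 and 2 are on those of experiment 1. The deviations were taken from treatment means with the experiment left in, so shared VTS number 3 and shared experiment 9 cannot be told apart. Not every pair was over 0.1 and the labels do not say what the number marks, so arrays were not treated as paired. The number of arrays limits every value, and C1qa, C1qc and C1s1 are near the level of negative controls.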
